A study of Mus musculus with 3 samples.

Results

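Regulators of G protein signalling (RGS proteins) were followed across RAW264.7 cells, a mouse macrophage line, that had received palmitate, elaidate or oleate. The set held 8 genes listed by symbol: Rgs1, Rgs2, Rgs10, Rgs12, Rgs14, Rgs16, Rgs18 and Rgs19. It was drawn up because Rgs1 stood in steps on the palmitate, elaidate and oleate arrays, so the Rgs1 values below are a description and support nothing further. Of the 8 genes, 7 had a probe set of their own among the 18820 genes measured in this way, each by 1 probe set. Rgs10 was not analysed here, because no probe set carried its symbol alone in the platform annotation used.

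Cells stayed for 6 hours in medium with palmitate, elaidate or oleate at 500 µM. The fatty acid was coupled to fatty acid-free serum albumin at a ratio of 2 to 1. Palmitate is a saturated fatty acid, elaidate a trans monounsaturated one, and oleate the cis isomer of elaidate with the same chain length. All cultures were of this single line in serum-containing medium, and an array of cells without added fatty acid was not analysed here. Each fatty acid is represented by 1 array. No test, error or interval of a difference was therefore possible, and each comparison below is between single arrays.

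RGS proteins end signals from G protein-coupled receptors. They bind the active, GTP-bound alpha subunit of a G protein and speed the hydrolysis of its GTP, after which the subunit closes up again with its beta and gamma partners. In macrophages and lymphocytes, chemokine and other chemoattractant receptors signal largely through alpha subunits of the Gi class, and RGS proteins shorten those signals. The R4 subfamily (Rgs1, Rgs2, Rgs16 and Rgs18) consists of small proteins that are little more than the RGS domain. The R12 subfamily (Rgs10, Rgs12 and Rgs14) includes large members with further domains, and Rgs19 belongs to the RZ subfamily.

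Rgs1, Rgs2 and Rgs18, the members that differed most between arrays within the R4 subfamily, lie beside each other on mouse chromosome 1. In the RefSeq annotation of the GRCm38.p6 assembly, the run from Rgs2 to Rgs18 holds 5 consecutive protein-coding genes, and all 5 are RGS genes, in the order Rgs2, Rgs13, Rgs1, Rgs21 and Rgs18. Rgs16 lies elsewhere on that chromosome, directly beside Rgs8. RefSeq promoter windows were supplied for 5 of the 8 genes. The 250 bases before the start site are shown for Rgs2, which differed at least 2-fold between the palmitate and oleate arrays, and for Rgs16, an R4 member equal on every array. Both run 5′ to 3′ on the gene's strand, and capitals mark the letters TAAAAGCC, which they share.

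Rgs2, GRCm38.p6 chr1:144004150-144004399, minus strand: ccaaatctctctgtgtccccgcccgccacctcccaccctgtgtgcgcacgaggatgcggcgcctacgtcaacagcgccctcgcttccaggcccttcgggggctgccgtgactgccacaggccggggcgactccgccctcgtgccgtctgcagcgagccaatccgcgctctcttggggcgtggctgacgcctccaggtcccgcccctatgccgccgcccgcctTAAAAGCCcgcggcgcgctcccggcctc

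Rgs16, GRCm38.p6 chr1:153740103-153740352, plus strand: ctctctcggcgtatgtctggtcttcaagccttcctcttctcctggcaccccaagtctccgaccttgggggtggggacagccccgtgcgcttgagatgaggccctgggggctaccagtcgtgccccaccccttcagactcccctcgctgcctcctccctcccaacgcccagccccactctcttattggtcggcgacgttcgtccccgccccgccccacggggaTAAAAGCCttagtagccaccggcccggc

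The shared letters TAAAAGCC begin 28 bases before the start site in both sequences, a place where AT-rich TATA-type elements are commonly found. They were picked after the sequences had been seen. On the gene's strand they occur in 0.548% of the 32851 windows of all genes, and on either strand in 0.971%. Of the 22 windows of 16 RGS genes in the table, only those of Rgs2 and Rgs16 hold them on the gene's strand. Rgs2 differed between the arrays, whereas Rgs16 was equal on them at a low value. Both stretches are rich in G and C, at 72.4% for Rgs2 and 66.4% for Rgs16, against a median of 52.4% over all windows.

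Short motifs were also searched on both strands of the full windows, which reach from 250 bases before to 50 after a start site. They were TGACGTCA, the cAMP response element, TGANTCA, the AP-1 site, and TGATGCAA, the composite C/EBP-ATF element. A form of the NF-kB site with 10 letters was searched as well. No motif contains another. The Rgs2 and Rgs16 windows hold none of them. Among the 8 windows of the 5 RGS genes there was 1 match, TGACTCA in 1 of the 2 windows of Rgs12, 22 bases before that start site. Over all windows the shares were 1.79% for TGACGTCA, 7.81% for TGANTCA, 0.895% for TGATGCAA and 0.155% for the NF-kB site. The absence of a match says only that these letters are not in these windows.

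The values are log2 expression values after RMA, so a difference of 1 is 2-fold. A level is comparable between arrays for a given gene, not between genes. Median values over all 35556 probe sets were alike, between 3.57 and 3.61 on the 3 arrays. A filter on low values kept 9410 genes, those with a mean across the arrays no lower than that of the median gene, and 5 of the 7 measured RGS genes passed it. Macrophage markers were present, with all 8 past the filter. Relative to oleate, 7 of the 8 were lower on the palmitate array and 1 was equal, with differences from -0.83 to 0. Of all 9410 genes, 3459 were lower and 2910 higher there. On the elaidate array 6 of the 8 were lower than on the oleate array and 2 were equal, with differences from -0.34 to 0. Of all genes 2290 were lower and 2968 higher in that comparison. None of the 4 measured B cell markers or the 4 measured T cell markers passed the filter, and they lay between 2.15 and 3.28 on every array. Of the platelet markers 1 of 4 passed, Pf4, and of the fibroblast markers 1 of 4, Col1a1, which was equal on all arrays. The part that the lower macrophage markers play in the RGS differences was not tested. In such bulk RNA, fewer cells expressing a gene and less RNA per cell cannot be told apart.

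Rgs1 and Rgs2 were higher on the palmitate array than on the oleate array, and took their middle value on the elaidate array. Rgs14 was lower with palmitate and alike with the other fatty acids, Rgs18 was highest with elaidate and lowest with palmitate, and Rgs19 hardly differed. Rgs12 and Rgs16 gave equal values throughout.

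**Figure D1:**
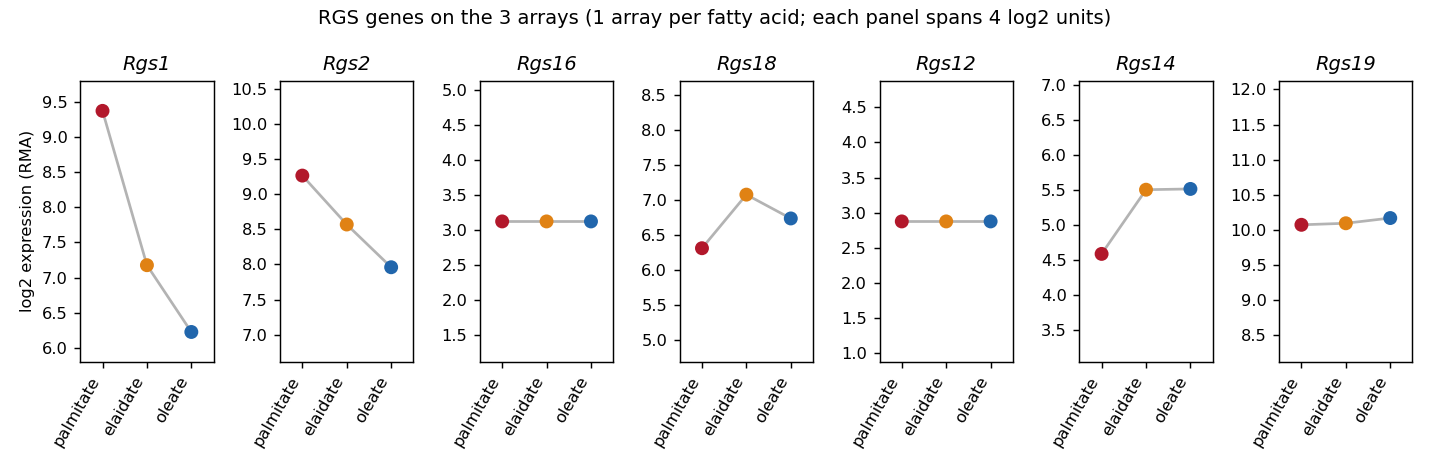
Log2 expression (vertical axis, RMA values) of the 7 measured RGS genes on the palmitate, elaidate and oleate arrays, 1 point per array, with panels of equal span. Rgs1 and Rgs2 descend from palmitate through elaidate to oleate, Rgs14 is low on the palmitate array, Rgs18 peaks on the elaidate array, and Rgs12 and Rgs16 are flat.

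Rgs1 encodes an R4 protein best known in B cells and T cells, where it dampens the response to chemokines. Its log2 value on the array was 9.37 with palmitate, 7.18 with elaidate and 6.22 with oleate. The steps were unequal in size. Palmitate minus elaidate came to 2.20 (4.59-fold) and elaidate minus oleate to 0.95 (1.93-fold), so that the upper step was larger by 1.25. Over the whole range, palmitate stood above oleate by 3.15, or 8.88-fold. No other gene among the 9410 had both steps at least as large. Rgs1 ranked 7th from the highest in palmitate minus oleate, 11th in elaidate minus oleate and 8th in palmitate minus elaidate. These ranks come from the values that chose the set.

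Rgs2, an R4 protein that acts preferentially on alpha subunits of the Gq class, stood at 9.27 with palmitate, 8.57 with elaidate and 7.96 with oleate. The arrays fell in the same order as for Rgs1, but the range was narrower and the steps were nearly even. Palmitate minus elaidate was 0.70 (1.62-fold) and elaidate minus oleate 0.61 (1.52-fold), a gap of 0.09 between the steps. Palmitate minus oleate was 1.31, or 2.47-fold. Both steps were at least as large in 22 other genes, Rgs1 among them. Rgs2 ranked 84th from the highest in palmitate minus oleate, 59th in elaidate minus oleate and 222nd in palmitate minus elaidate.

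Rgs18, an R4 protein known from platelets and their precursors as well as from other blood cells, had the elaidate array on top. Its values were 6.31 with palmitate, 7.07 with elaidate and 6.73 with oleate. Elaidate minus oleate was 0.34 (1.27-fold), palmitate minus oleate was -0.42 (1.34-fold lower) and palmitate minus elaidate was -0.76 (1.70-fold lower). The trans fatty acid and the saturated one thus lay on opposite sides of oleate for this gene. The order with elaidate highest and palmitate lowest, elaidate and palmitate both differing from oleate, held for 906 of the 9410 genes (9.63%). In 8 other genes both differences from oleate were at least as large as for Rgs18. Of the platelet markers, Itga2b, Gp9 and Ppbp were below the filter and equal on all arrays. Pf4 stood at 9.32 with palmitate, 9.48 with elaidate and 9.62 with oleate. A link between these markers and the Rgs18 values was not tested.

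Rgs16, an R4 protein that acts on Gi and Gq class subunits and is inducible in many immune cells, had a log2 value of 3.12 on each of the 3 arrays. Rgs12, a large R12 protein with a GoLoco motif, which binds inactive Gi subunits, had 2.88 on each. Both lay below the filter. Equal means here within 1e-06. Such equality on all arrays held for 75.6% of the genes below the filter and 27.5% of those past it, so it is common at low values. It does not show that the transcripts were absent or did not change.

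Rgs14, the other measured R12 gene, encodes a protein that joins an RGS domain to Ras-binding domains and a GoLoco motif. It had 4.59 with palmitate, 5.50 with elaidate and 5.52 with oleate. The palmitate array alone stood away. The palmitate minus oleate difference was -0.93 (1.90-fold lower) and the palmitate minus elaidate difference -0.91 (1.89-fold lower), both short of 2-fold. Elaidate minus oleate was -0.01. In palmitate minus oleate, Rgs14 ranked 149th from the lowest of the 9410 genes, and in palmitate minus elaidate 115th.

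Rgs19, an RZ protein also known as GAIP that acts on Gi class subunits, had 10.07 with palmitate, 10.09 with elaidate and 10.17 with oleate. Its differences were -0.10 for palmitate minus oleate, -0.07 for elaidate minus oleate and -0.02 for palmitate minus elaidate. They were the smallest among the 5 RGS genes past the filter in the comparisons that involve palmitate.

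The counts past 2-fold were small. For palmitate against oleate, Rgs1 and Rgs2 were at least 2-fold higher, and none was 2-fold lower. They are 2 of the 7 measured genes, or 2 of the 5 past the filter. Among all genes past the filter 1.65% were 2-fold higher and 1.22% were 2-fold lower. For palmitate against elaidate, Rgs1 was 2-fold higher and no RGS gene was 2-fold lower, where 0.978% of all genes were higher and 0.871% lower. For elaidate against oleate, none of the 7 passed 2-fold in either direction, where 0.106% of all genes were 2-fold higher and 0 of 9410 were lower. Because the set was chosen on these contrasts, nothing is read from these shares.

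Taken by sign, the genes were divided, as were all genes past the filter. In palmitate minus oleate, 2 of the 7 were higher, 3 were lower and 2 were equal, with a median difference of 0. Of all 9410 genes past the filter, 2910 were higher, 3459 lower and 3041 equal in that comparison. In elaidate minus oleate 3 were higher, 2 lower and 2 equal, and the median was again 0, beside 2968 higher, 2290 lower and 4152 equal of all genes. In palmitate minus elaidate 2 were higher, 3 lower and 2 equal, also with a median of 0. There, 2630 of all genes were higher, 3565 lower and 3215 equal. The counts and medians of the 7 include the 2 genes below the filter that were equal on all arrays. Over the 5 RGS genes past the filter the medians were -0.10 for palmitate minus oleate, 0.34 for elaidate minus oleate and -0.02 for palmitate minus elaidate, beside 0 in each comparison for all 9410 genes past it. The comparisons share arrays, so their counts are not independent of each other.

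**Figure D2:**
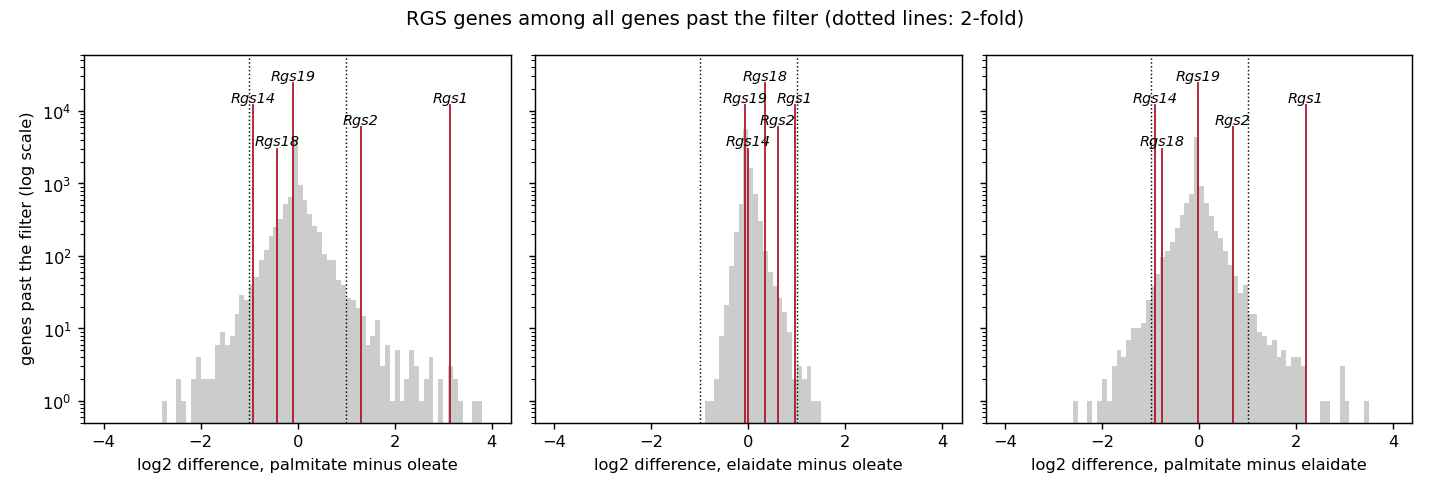
Distribution of log2 differences over the 9410 genes past the filter (grey bars, number of genes on a log scale) for palmitate minus oleate, elaidate minus oleate and palmitate minus elaidate, with the 5 RGS genes past the filter as red lines and 2-fold as dotted lines. Rgs1 lies in the upper tail of each panel, at 3.15, 0.95 and 2.20, whereas Rgs19 lies near 0.

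Among the genomic neighbours of Rgs1 and Rgs2 the patterns were mixed, and Rgs18, past the filter, had another order of arrays. Rgs13, which lies between Rgs1 and Rgs2 and is known from germinal centre B cells and mast cells, stood at 2.23 on each array. Rgs21, the next gene after Rgs1, was not analysed here. Outside the run, on the side of Rgs2, Uchl5, a deubiquitinase of the proteasome, differed by 0.23 in palmitate minus oleate and by 0.15 in elaidate minus oleate. The gene beyond it, Ro60, a protein that binds small noncoding RNAs, differed by 0.11 and 0.04. Uchl5 and Ro60 thus had the same order of arrays as Rgs1 and Rgs2, at smaller differences. On the side of Rgs18, Brinp3 was equal on all arrays. Pla2g4a, the cytosolic phospholipase that frees arachidonic acid from membranes, differed by 0.12 in palmitate minus oleate and in elaidate minus oleate alike. Of the 8 measured genes of this stretch, Rgs1 and Rgs2 were at least 2-fold higher in palmitate minus oleate. Among all genes past the filter 1.65% were. Rgs1, on which the set was chosen, was also 2-fold higher in palmitate minus elaidate, beside 0.978% of all genes. The others differed less than 2-fold in every comparison. Rgs13 and Brinp3 lay below the filter, where equal values do not show that nothing changed.

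**Figure D3:**
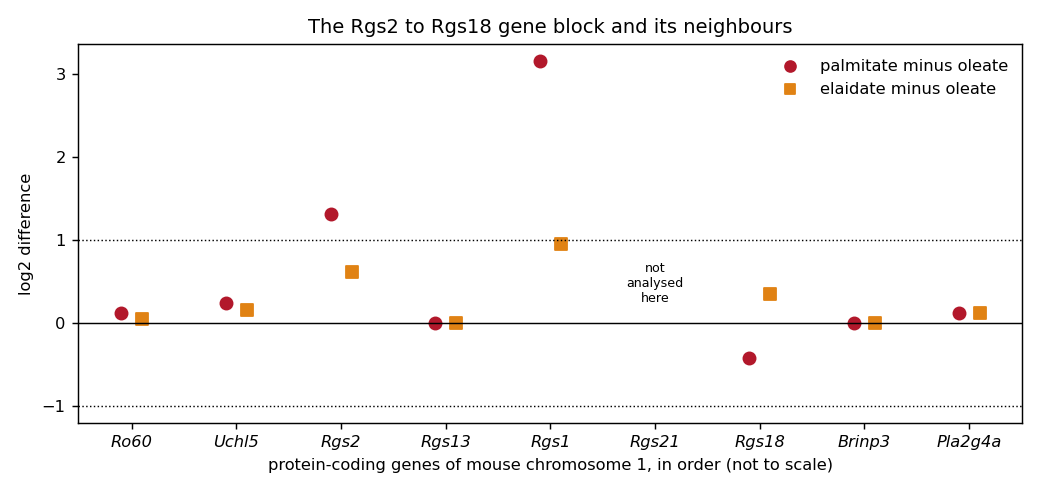
Log2 differences (vertical axis) of the run of RGS genes on chromosome 1 and of 2 protein-coding genes on each side, in chromosomal order and not to scale, for palmitate minus oleate (circles) and elaidate minus oleate (squares). Rgs1 and Rgs2 stand at 3.15 and 1.31 with palmitate, Rgs18 has opposite signs in the 2 comparisons, and the flanking genes differ by at most 0.23.

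The remaining RGS genes were mostly at low values. Of 13 further genes named Rgs with a number, 11 were measured and 2 passed the filter, Rgs3 and Rgs20. Rgs20, a relative of Rgs19, was equal on all arrays, as were 8 of the 11 in all. Rgs3 had the largest difference, with 4.87 on the palmitate array and 4.72 on both the elaidate and the oleate array, a palmitate minus oleate difference of 0.16. It was followed by Rgs17 at -0.05 for elaidate minus oleate. None of these genes came near 2-fold, but most were low and equal, which does not show that they did not change. Among all genes past the filter, 2.87% passed 2-fold for palmitate against oleate and 0.106% for elaidate against oleate. For palmitate against elaidate 1.85% did.

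Proteins that carry an RGS-type domain for other purposes, such as receptor kinases, sorting nexins and the Axin scaffolds, were represented by 13 measured genes, of which 10 passed the filter. None differed 2-fold in any comparison. Few of all genes past the filter did, at 2.87% for palmitate against oleate, 0.106% for elaidate against oleate and 1.85% for palmitate against elaidate. The median of the relatives in palmitate minus oleate was -0.02, from 2 genes higher, 5 lower and 3 equal. Of all 9410 genes, 2910 were higher, 3459 lower and 3041 equal there. Snx25, a sorting nexin, was the furthest from 0, with 4.88 on the palmitate array against 5.40 on both the elaidate and the oleate array. Grk6, a kinase that phosphorylates active receptors, followed with 6.97 with palmitate, 7.43 with elaidate and 7.44 with oleate, a palmitate minus oleate difference of -0.47.

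Among the G protein alpha subunits, on which RGS proteins act, 8 of 15 measured genes passed the filter. Their median was -0.26 in palmitate minus oleate, with 5 genes lower, 2 higher and 1 equal. Of all 9410 genes in that comparison, 3459 were lower, 2910 higher and 3041 equal, and 1.22% were 2-fold lower. In elaidate minus oleate it was 0, with 3 genes higher, 3 lower and 2 equal, beside 2968 higher, 2290 lower and 4152 equal of all genes. Gna15 was the member past 2-fold. It encodes a Gq class subunit of blood cells that couples to a wide range of receptors. Gna15 stood at 4.94 with palmitate, 6.35 with elaidate and 6.54 with oleate. That is a difference of -1.60 for palmitate minus oleate (3.02-fold lower), -1.41 for palmitate minus elaidate and -0.19 for elaidate minus oleate. The beta and gamma subunits had 8 of 14 measured genes past the filter and no 2-fold difference, beside the small shares of all genes given above. Gnb2, a beta subunit, stood at -0.54 and Gng5, a gamma subunit, at 0.23 in palmitate minus oleate, where the median was -0.06.

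Effectors of G proteins and enzymes of cAMP handling had 10 of 19 measured genes past the filter. In palmitate minus oleate the median was -0.18. There, 7 genes were lower, 2 higher and 1 equal, and 2 of those lower were past 2-fold, beside 1.22% of all genes and the 3459 lower and 2910 higher given above. Adcy7, an adenylyl cyclase abundant in blood cells that makes cAMP, stood at 6.55 with palmitate, 7.70 with elaidate and 7.98 with oleate. Its palmitate minus oleate difference was -1.43 and its palmitate minus elaidate difference -1.15, both past 2-fold. Pik3cg encodes the catalytic subunit of the phosphoinositide 3-kinase that beta-gamma dimers activate. It stood at 7.71 with palmitate, 8.58 with elaidate and 8.72 with oleate. Palmitate minus oleate thus lay only just past the limit, at 2.01-fold lower.

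A list of arrestins and of proteins, other than RGS proteins, that bind alpha subunits had all 7 genes past the filter. None was 2-fold different in any comparison, where 2.87%, 0.106% and 1.85% of all genes were, in the order of comparisons used above. The palmitate minus oleate median was -0.45, from 4 genes lower, 1 higher and 2 equal, beside 3459 lower, 2910 higher and 3041 equal of all genes. The highest was Ric8a, a chaperone and exchange factor for alpha subunits, with 7.17 with palmitate, 6.33 with elaidate and 6.27 with oleate. The lowest was Arrb1, a beta-arrestin that uncouples active receptors, with 8.10 with palmitate, 8.78 with elaidate and 8.96 with oleate. The palmitate minus oleate differences were 0.90 for Ric8a and -0.86 for Arrb1.

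Chemoattractant receptors of the Gi class had 8 of 10 measured genes past the filter. Their palmitate minus oleate median was 0, from 2 genes higher, 3 lower and 3 equal, beside 2910, 3459 and 3041 of all genes. Of all genes, 1.22% were 2-fold lower in that comparison. In palmitate minus elaidate 0.978% were 2-fold higher and 0.871% lower. Cx3cr1, the fractalkine receptor, stood at 4.78 with palmitate, 7.31 with elaidate and 7.55 with oleate. It was past 2-fold lower in palmitate minus oleate, at -2.77, and in palmitate minus elaidate, at -2.54, and differed by -0.23 in elaidate minus oleate. Ptafr, the receptor for platelet-activating factor, had 8.09 with palmitate, 6.96 with elaidate and 7.11 with oleate. It was 2-fold higher in palmitate minus elaidate, at 1.13, and just short of that in palmitate minus oleate, at 0.98.

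**Figure D4:**
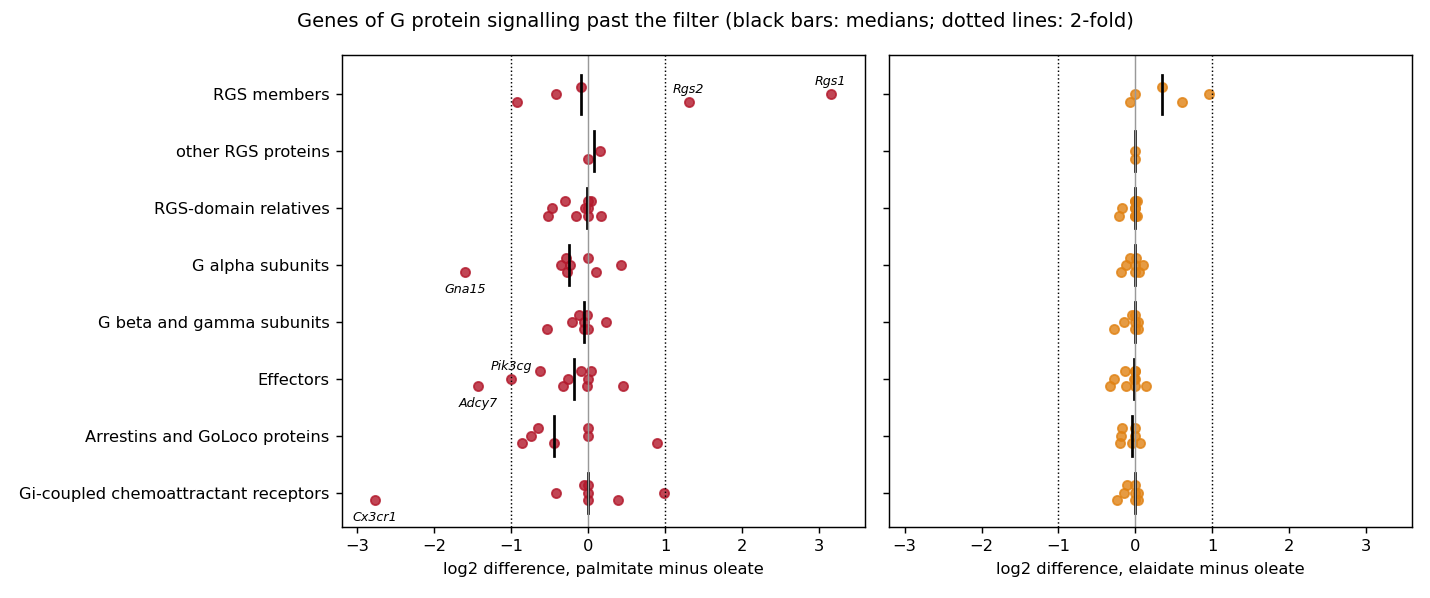
Log2 differences of genes past the filter in 8 lists of G protein signalling, for palmitate minus oleate (left) and elaidate minus oleate (right), 1 point per gene, with black bars at the list medians and dotted lines at 2-fold. With palmitate, Rgs1 and Rgs2 lie past 2-fold upward and Gna15, Adcy7, Pik3cg and Cx3cr1 downward. Of all genes past the filter, 1.65% were 2-fold higher and 1.22% 2-fold lower there. With elaidate no gene of the lists lies past 2-fold, where only 0.106% of all genes did, so nothing is read from it.

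The genes whose pattern was nearest to Rgs1 were sought among the 9410, by the Euclidean distance of the 3 values after each gene was centred on its own mean. The 5 nearest were Nupr1, Slc1a4, Adh7, Cth and Sesn2. Nupr1, a small stress-induced chromatin protein, lay at a distance of 0.17, with 10.49 with palmitate, 8.43 with elaidate and 7.58 with oleate. Slc1a4, a carrier of neutral amino acids, lay at 0.18, with 7.95 with palmitate, 5.87 with elaidate and 4.66 with oleate. The alcohol dehydrogenase gene Adh7, the cysteine synthesis enzyme gene Cth and the stress-induced gene Sesn2 each lay at 0.32. All 5 had palmitate highest and oleate lowest, with palmitate minus oleate between 2.70 and 3.29. This likeness follows from the choice of genes by distance and is no further result.

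For Rgs2 the 3 nearest were Ifi202b at a distance of 0.02, Kitl at 0.02 and Ccl4 at 0.04. Ifi202b is an interferon-inducible gene of a family of close copies, which array probes may not separate. It stood at 8.71 with palmitate, 8.01 with elaidate and 7.38 with oleate. Kitl, the ligand of the receptor Kit, differed by 1.32 in palmitate minus oleate and by 0.59 in elaidate minus oleate. Ccl4, a chemokine, differed by 1.26 and 0.56 in the same comparisons. With only 3 arrays behind each pattern, genes can lie close to each other without being related, and nearness describes these arrays alone.

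**Figure D5:**
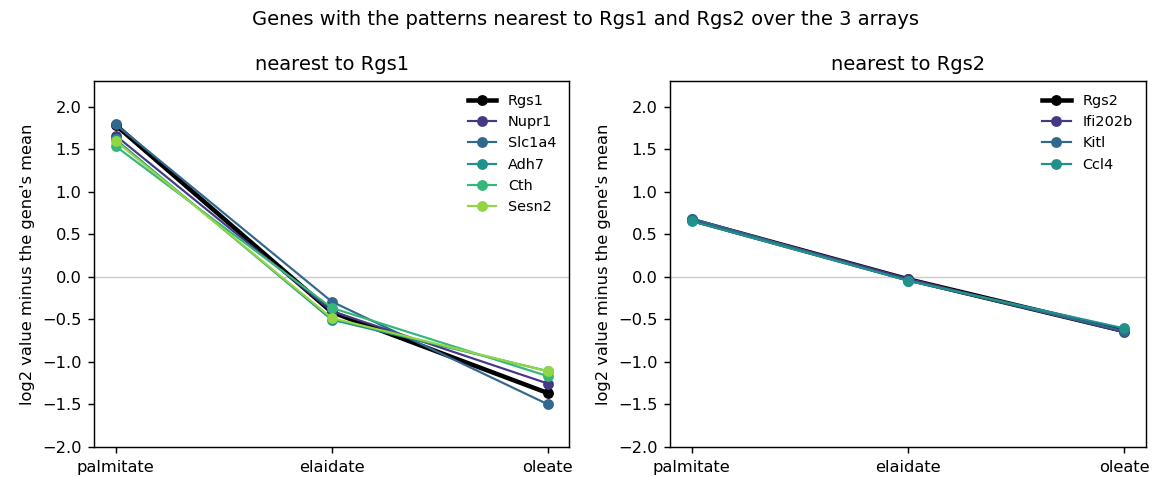
Log2 values minus each gene's own mean (vertical axis) on the palmitate, elaidate and oleate arrays for Rgs1 with its 5 nearest genes (left) and Rgs2 with its 3 nearest (right), the RGS gene in black. Both sets descend from palmitate to oleate, with a larger upper step near Rgs1 and nearly even steps near Rgs2. The genes were picked for this likeness.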

How the data were processed

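RNA of 3 RAW264.7 cultures was hybridised to Affymetrix whole-transcript arrays, 1 per fatty acid, per the labels' protocols, and groups came from the sample titles. The authors deposited 1 log2 value per probe set and array, computed with RMA per the submitters' processing notes, which give no version here. The values were used unaltered. Arrays have no depth, and their number limits the precision.

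Of 35556 probe sets, 21218 had 1 gene symbol in the platform annotation (which can be old), 1881 had several and 12457 had none in it. Genes were taken from probe sets with 1 symbol, and 21185 of these matched RefSeq by gene identifier and took its symbol. Several probe sets of a gene were averaged (1386 genes). The filter limit was a log2 mean of 4.14. Differences of at least 2-fold were counted.

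The genes, lists and comparisons were chosen with earlier results of these data known. Named genes are the members, list genes at least 2-fold different or else the 2 furthest from 0, and the nearest patterns (5 for Rgs1, 3 for another 2-fold member), leaving out predicted genes, small RNA genes and olfactory or vomeronasal receptors. Genes beside the run on chromosome 1 and the letters TAAAAGCC were added after the data were seen. The counting step was tested on simulated data. Alternatives were other filters, limits of 1.5-fold and 3-fold, median centring, cyclic loess (limma 3.58.1 in R 4.3.3, span 0.7, 3 iterations) and the probe set with the highest mean. Python 3.11.15, numpy 2.4.6, pandas 2.3.3 and matplotlib 3.10.9 were used.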

Additional observations from a re-analysis of the deposited data

How the results depend on the processing

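The differences of the 7 RGS genes depended little on further scaling of the RMA values. Such scaling cannot show how far they depend on RMA itself. Within a comparison, median centring moves every gene by the same amount, set by the array medians. Median centring and cyclic loess shifted all 21 RGS differences by at most 0.04, and no RGS gene crossed the 2-fold limit. Taking the probe set with the highest mean could not move them, since each RGS gene has 1 probe set. The counts depended on the limit. At 3-fold, 1 RGS gene was counted for palmitate against oleate (0.861% of all genes). At 1.5-fold, 3 were counted for palmitate against oleate (9.3% of all genes), 2 for elaidate against oleate (0.786% of all genes) and 4 for palmitate against elaidate (7.61%). The median over RGS genes past the filter rests on 5 genes, at -0.10 for palmitate minus oleate, 0.34 for elaidate minus oleate and -0.02 for palmitate minus elaidate. With a filter at the 75th percentile, 3 genes were left and these medians were 1.31, 0.61 and 0.70, and without a filter the elaidate minus oleate median was 0. Leaving out genes equal on both arrays, chosen after seeing the data, raised the share of all genes past 2-fold in each comparison. The share was 4.24% in place of 2.87% for palmitate against oleate and 0.19% in place of 0.106% for elaidate against oleate. For palmitate against elaidate it was 2.81% in place of 1.85%. The 5 genes nearest to Rgs1 were the same 5 after cyclic loess. No paired analysis was possible because each fatty acid has 1 array.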
